A study of Homo sapiens with 8 samples.

Results

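Autophagy machinery genes are described here across 8 arrays of a parental myeloma line and its melphalan-resistant derivative. The 38 genes were chosen by name. They are genes of the core autophagy apparatus with its cargo receptors, the transcription factor TFEB and the lysosomal membrane proteins LAMP1 and LAMP2. Each was read from the brightest array feature (transcript cluster) that the platform annotation gives to that gene alone. All 38 were found, among 18417 genes tested. The lines were U266/s, a human multiple myeloma line, and U266/LR7, described as resistant to melphalan, a DNA-crosslinking alkylating drug used against myeloma. Each line was measured in 4 conditions, with 1 one-colour Affymetrix array per condition. The control was transfected with a negative control oligonucleotide, and the other conditions were 100 µM melphalan, 100 nM inhibitors of miR-221 and miR-222, and inhibitors with melphalan. RNA was taken after 12 h. The sources conflict on the melphalan-alone arrays, which carry the transfection tag none although the growth protocol mentions either inhibitors or a negative control for the transfected cells. Under the tags, the melphalan difference without inhibitors would include a difference in transfection. The labels do not say whether U266/LR7 is a single clone.

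Autophagy encloses cytoplasm in a double membrane and delivers it to lysosomes. The ULK kinase complex starts the process, a class III phosphatidylinositol 3-kinase complex marks the membrane with a lipid signal, and ATG9, ATG2 and WIPI proteins bring and bind lipid. Ubiquitin-like conjugation then attaches ATG8 proteins (the LC3 and GABARAP families) to the membrane, where they bind cargo receptors such as p62. Plasma cells and myeloma cells are known to use autophagy alongside the proteasome while they secrete large amounts of immunoglobulin.

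Values are log2 signals, so a difference of 1 is 2-fold. Genes were tested with limma across all 18417 genes, and called at a Benjamini-Hochberg adjusted p under 0.05. Each melphalan response compares 2 arrays with 2 within a line, and with 1 array per condition the error is the spread that the 8 arrays share after line, melphalan, inhibitors and the melphalan by line term (median residual SD 0.139). Whether the arrays stem from independent cultures is not stated, and p-values hence reflect array-to-array spread that may be technical. The arrays' quartile ranges over 33297 clusters were 3.58 to 3.71 log2 units except on the U266/s arrays with melphalan, 3.25 alone and 3.34 with inhibitors. Plasma cell markers (9 of 9 measured) had a median signal of 10.27 in U266/s and 11.45 in U266/LR7 without melphalan, against 5.79 and 5.86 for B cell markers (4 of 5 measured) and 5.87 and 6.13 for T and NK cell markers (5 of 5). Of the plasma cell markers, PRDM1 (-1.14), CD38 (-0.69), XBP1 (-0.67), MZB1 (-0.64) and IRF4 (-0.46) fell with melphalan in U266/s and SDC1 (1.09) rose, and their sum of log2 signals went from 93.8 to 90.4. In U266/LR7 XBP1 and IRF4 fell (-0.50 each), and the sum went from 96.9 to 94.9. Myeloid markers (5 of 5) summed to 30.3 in U266/s without melphalan and 35.0 with it, with CD14, CD68 and MPO called higher. In U266/LR7 they summed to 29.7 and 31.1, with CD14 called higher (0.55). The B cell marker CD79A (0.84) and the T and NK markers CD8A (0.53) and NKG7 (0.50) also rose in U266/s, and 0 of either list fell. Stromal, epithelial and endothelial markers (6 of 6) had medians of 7.38 in U266/s and 7.21 in U266/LR7 without melphalan. Of these EPCAM fell with melphalan in U266/s (-1.77). The part of these marker changes in the results below was not tested. In such bulk RNA, fewer cells of a kind and less RNA per cell cannot be told apart.

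In U266/s, more of these messages fell than rose with melphalan, and the largest falls were those of ATG4C, PIK3R4, UVRAG and ATG5. Of 38 genes, 17 fell (24.9% of all genes tested did), 5 rose (18.4% of all genes), and 16 did not pass. Together 22 were called, beside 43.4% of all genes, and the median difference of the 38 was -0.24 against 0.08 for all genes. ATG4C, PIK3R4, UVRAG, ATG5, ATG4A and PIK3C3 were at least 2-fold lower, as were 10.4% of all genes, and 0 were at least 2-fold higher (2.03% of all genes). The split between rises and falls moved with the scaling of the arrays. It was 6 to 15 with each array centred on its median, 9 to 12 after quantile normalization of the genes tested and 7 to 13 after cyclic loess. The medians of the 38 in that order were -0.17, -0.04 and -0.16, against 0.137, 0.081 and -0.002 for all genes. The shares of all genes called each way under these scalings are not given here.

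**Figure D1:**
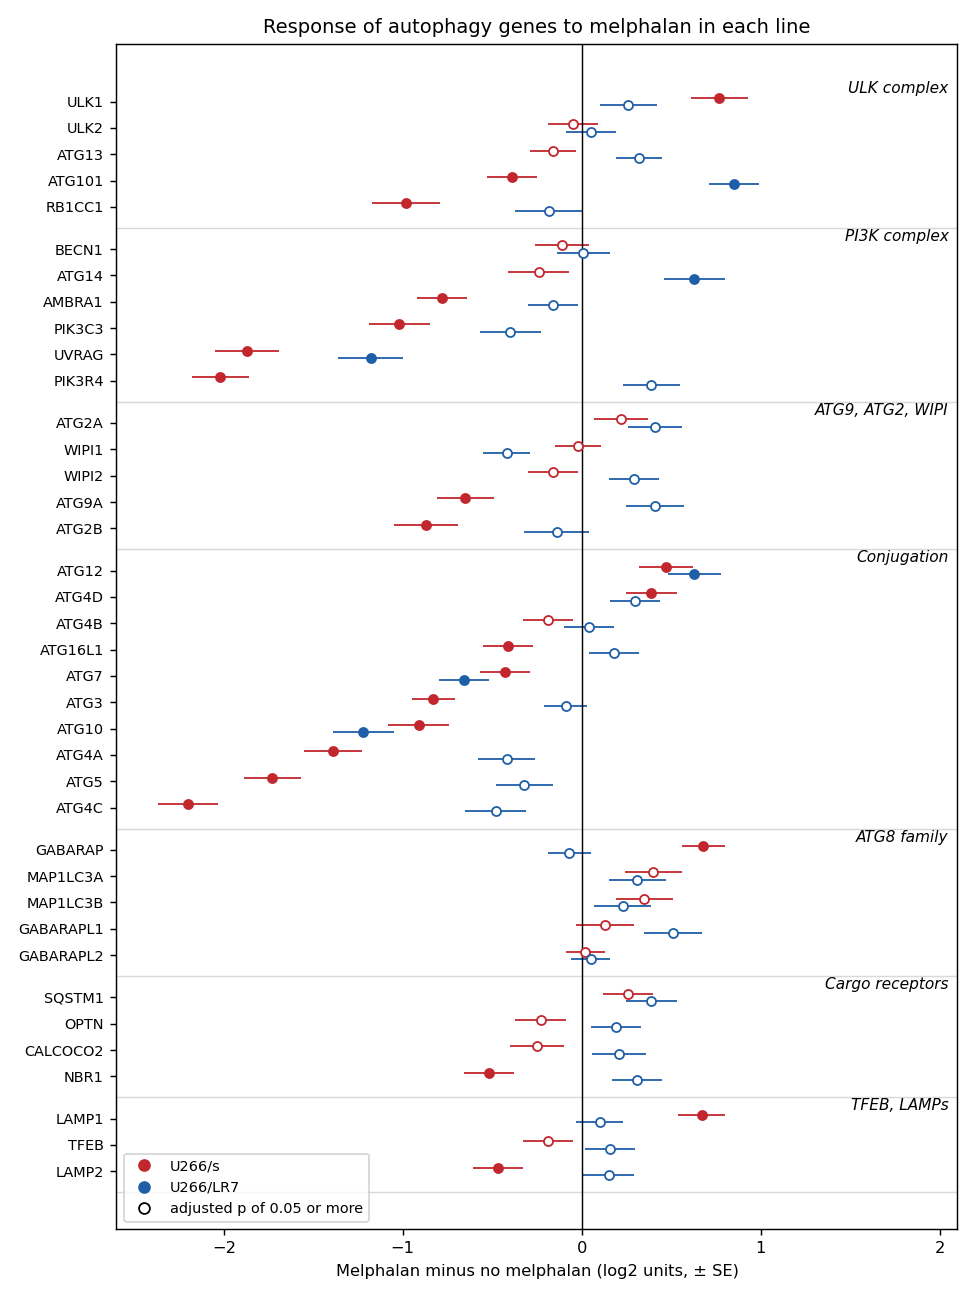
Difference between melphalan and no melphalan (log2 units, horizontal axis) for the 38 genes grouped by role, in U266/s (red) and U266/LR7 (blue). Points are limma estimates from 2 arrays against 2, bars are ± SE, and filled points have an adjusted p under 0.05; the red points run from -2.20 (ATG4C) to 0.77 (ULK1), and the blue from -1.22 (ATG10) to 0.85 (ATG101).

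Of the phosphatidylinositol 3-kinase complex, 4 of 6 genes fell in U266/s and 0 rose, with the same counts under each of the 3 other scalings. PIK3R4 encodes VPS15, the regulatory subunit that anchors the lipid kinase. Its signal in U266/s was 10.07 in the control and 9.94 with inhibitors, and 7.80 and 8.17 on the matching melphalan arrays. In U266/LR7 it was 9.90 and 10.11 without melphalan and 10.43 and 10.36 with it. The melphalan arrays of U266/s thus lay below all 6 others, and those of U266/LR7 above them. PIK3R4 fell by 2.02 ± 0.16 log2 units (SE) in U266/s, 4.05-fold (adjusted p = 5.57e-06), whereas the difference in U266/LR7 was 0.39 ± 0.16 (adjusted p = 0.186). The responses of the lines differed by 2.41 ± 0.22 (adjusted p = 1e-04 for the melphalan by line term).

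UVRAG, a subunit of the complex that acts on endosomes and late autophagosomes, fell in both lines. Its signals in U266/s were 9.90 and 9.70 without melphalan and 7.98 and 7.86 with it. In U266/LR7 they were 9.10 and 9.57 against 8.21 and 8.10. In each line both melphalan arrays lay below both others. UVRAG fell by 1.87 ± 0.18 in U266/s (adjusted p = 1.45e-05), a call kept under every alternative. It fell by 1.18 ± 0.18 in U266/LR7 (adjusted p = 0.00321), a call lost when the array given both agents was left out (-1.10). The difference between the lines did not pass (0.70 ± 0.25, adjusted p = 0.0672).

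PIK3C3, the catalytic subunit VPS34, stood at 9.66 and 9.35 in U266/s without melphalan and at 8.70 and 8.26 with it. It fell by 1.02 ± 0.17 (adjusted p = 0.000512). In U266/LR7 the signals were 10.06 and 10.24 against 9.79 and 9.72, and the difference of -0.40 did not pass (adjusted p = 0.208). AMBRA1, which links the complex to ULK1 and to ubiquitin ligases, fell by 0.78 ± 0.14 in U266/s (adjusted p = 0.000852). Its value in U266/LR7 was -0.16 (adjusted p = 0.608), and the lines differed by 0.62 ± 0.19 (adjusted p = 0.0384), a call kept in 4 of 16 alternatives and lost under each of the 3 other scalings (0.41 to 0.52). BECN1 encodes Beclin 1, the scaffold of the complex, and did not move with its partners. It read 10.26 and 10.47 without melphalan and 9.99 and 10.53 with it in U266/s (-0.11, adjusted p = 0.57), and 10.65 and 10.83 against 10.74 and 10.75 in U266/LR7 (0.01, adjusted p = 0.992). The groups overlapped in both lines. ATG14, the subunit that directs the complex to forming autophagosomes, was called only in U266/LR7, where 7.54 and 7.87 became 8.37 and 8.31 (0.63 ± 0.17, adjusted p = 0.048), against -0.24 in U266/s (adjusted p = 0.26). The lines differed for ATG14 by 0.88 ± 0.24 (adjusted p = 0.0202), not called after quantile normalization (0.70). Its call in U266/LR7 was kept in 4 of 16 alternatives and lost under each of the 3 other scalings (0.56 to 0.60), with all two-way terms (0.63) and with transfection in 3 levels (0.61). It held in 1 of the 8 fits that each left out an array, with the U266/LR7 inhibitor array absent, and lay between 0.39 and 0.66 in the 7 others.

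The ULK complex moved in mixed directions in U266/s, with 1 of 5 genes higher and 2 lower. ULK1, its best known kinase, had signals of 8.31 and 8.20 without melphalan and 9.02 and 9.02 with it. It rose by 0.77 ± 0.16, 1.7-fold (adjusted p = 0.00222), under every alternative. In U266/LR7 the signals were 8.88 and 8.40 against 8.98 and 8.82, and the difference of 0.26 did not pass (adjusted p = 0.415). The difference between the lines was -0.51 ± 0.22 (adjusted p = 0.123), so a weaker rise in U266/LR7 was not shown. RB1CC1, also called FIP200, the large scaffold of the complex, went the other way. It read 8.21 and 7.97 without melphalan and 7.19 and 7.04 with it in U266/s, a fall by 0.98 ± 0.19 (adjusted p = 0.00178), and lay at 8.16 and 8.69 against 8.37 and 8.12 in U266/LR7 (-0.18, adjusted p = 0.703).

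ATG101, which stabilises ATG13 in the ULK complex, had responses of opposite sign. In U266/s the signals were 8.85 and 9.06 without melphalan and 8.51 and 8.62 with it. The U266/LR7 signals were 8.41 and 8.52 without melphalan and 9.20 and 9.43 with it. Neither line's groups overlapped. ATG101 fell by 0.39 ± 0.14 in U266/s, just past the threshold (adjusted p = 0.0401), and rose by 0.85 ± 0.14 in U266/LR7 (adjusted p = 0.00462). The lines differed by 1.24 ± 0.20 (adjusted p = 0.00106), a call that held under all 16 alternatives. The call of the fall in U266/s was kept in 5 of 16 alternatives. It was lost under each of the 3 other scalings (-0.08 after quantile normalization), with all two-way terms and with transfection in 3 levels. It was also lost in 6 of 8 fits without 1 array. The call of the rise was lost without either U266/LR7 melphalan array. The rise was 0.89 without the one given melphalan alone and 0.81 without the one given both agents. Among all genes, 0.581% were called lower in U266/s and higher in U266/LR7. ATG13 and ULK2 were not called in either line.

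Among the lipid-handling proteins, 2 of 5 fell in U266/s and 0 of 5 were called in U266/LR7. ATG2B, a lipid transfer protein, read 9.64 and 9.43 without melphalan and 8.55 and 8.79 with it, a fall by 0.87 ± 0.18 (adjusted p = 0.0022). Its second cluster gave -1.31. The call was lost without the U266/s control array (-0.66). ATG9A, the membrane protein that seeds the new membrane, read 9.23 and 9.59 against 8.69 and 8.83 and fell by 0.65 ± 0.16 (adjusted p = 0.00663). That call was lost without the U266/s melphalan array (-0.61), without the U266/s inhibitor array (-0.46), after quantile normalization (-0.33) and after cyclic loess (-0.41). In U266/LR7 ATG9A differed by 0.41 (adjusted p = 0.173), and the lines' responses differed by 1.06 ± 0.23 (adjusted p = 0.00562), not called after quantile normalization (0.70). ATG2A, WIPI1 and WIPI2, of which the WIPI proteins read the lipid signal, were not called in either line.

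The conjugation system, the largest of the groups, held the most called genes, 9 of 10 in U266/s. Of the 10, 7 were lower and 2 higher, beside 24.9% and 18.4% of all genes. ATG4C, a protease that trims ATG8 proteins, was the most reduced of the 38. Its signals in U266/s were 9.66 and 9.27 without melphalan and 7.19 and 7.33 with it. In U266/LR7 they were 9.28 and 9.49 against 8.93 and 8.88. Both lines separated, with a far wider gap in U266/s. The fall was 2.20 ± 0.17, 4.60-fold, in U266/s (adjusted p = 4.86e-06), and the difference was -0.48 in U266/LR7 (adjusted p = 0.123). The lines differed by 1.72 ± 0.24 (adjusted p = 0.00053). Its paralogs had other values. ATG4A read 9.0 and 9.03 against 7.45 and 7.80 in U266/s and fell by 1.39 ± 0.16 (adjusted p = 5.34e-05). ATG4B read 8.07 and 8.09 against 7.95 and 7.84 and was not called (-0.19, adjusted p = 0.294). ATG4D read 9.52 and 9.67 against 10.03 and 9.94 and rose by 0.39 ± 0.14 (adjusted p = 0.0482), a call lost in 6 of 8 fits without 1 array, with all two-way terms and with transfection in 3 levels. The 4 proteases of the family thus ranged from -2.20 to 0.39 in U266/s.

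ATG5 and ATG12 form the conjugate that, with ATG16L1, places ATG8 proteins on the membrane, and their messages moved apart. ATG5 read 9.16 and 9.06 in U266/s without melphalan and 7.47 and 7.29 with it. The resistant line read 8.84 and 9.14 against 8.64 and 8.69. ATG5 fell by 1.73 ± 0.16 in U266/s (adjusted p = 1.16e-05), against -0.32 in U266/LR7 (adjusted p = 0.29), and the lines differed by 1.41 ± 0.22 (adjusted p = 0.00107). ATG12 was the only gene of the 38 called higher in both lines, as were 0.896% of all genes. Its signals rose from 7.92 and 8.0 to 8.30 and 8.55 in U266/s (0.47 ± 0.15, adjusted p = 0.0242), and from 7.95 and 7.85 to 8.45 and 8.62 in U266/LR7 (0.63 ± 0.15, adjusted p = 0.0285). The melphalan arrays lay above the others in each line. Leaving out the U266/s control (0.48), inhibitor (0.46) or double-treated array (0.37) ended the call in U266/s, and 5 of 8 such fits, and transfection in 3 levels, ended it in U266/LR7. ATG16L1 fell by 0.41 ± 0.14 in U266/s (adjusted p = 0.0351), a call lost in 6 of 8 fits without 1 array, after median centring (-0.35) and with transfection in 3 levels.

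The enzymes that activate and transfer these proteins also fell. ATG10, the E2-like enzyme for ATG12, dropped in both lines. It read 8.06 and 7.72 in U266/s without melphalan and 6.97 and 6.99 with it. The resistant line read 8.17 and 8.39 against 6.91 and 7.21. The 4 melphalan arrays lay below the 4 others, whatever the line. ATG10 fell by 0.91 ± 0.17 in U266/s (adjusted p = 0.00124) and by 1.22 ± 0.17 in U266/LR7 (adjusted p = 0.0021), and it was called in both lines under all 16 alternatives. ATG7, the E1-like enzyme, read 7.89 and 7.83 against 7.39 and 7.47 in U266/s (-0.43, adjusted p = 0.0275) and 8.35 and 8.47 against 7.72 and 7.78 in U266/LR7 (-0.66, adjusted p = 0.0176). Its call was lost in both lines with transfection in 3 levels, and in U266/s after quantile normalization (-0.32) and in 6 of 8 fits without 1 array. In U266/LR7 it was lost without the melphalan (-0.65), inhibitor (-0.61) or double-treated array (-0.66). ATG3, the E2-like enzyme for ATG8 proteins, fell by 0.83 ± 0.12 in U266/s (adjusted p = 0.00024), against -0.09 in U266/LR7 (adjusted p = 0.781). UVRAG, ATG7 and ATG10 were the genes of the 38 called lower in both lines, as were 2.52% of all genes, and for none of these 3 was a difference between the lines called.

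**Figure D2:**
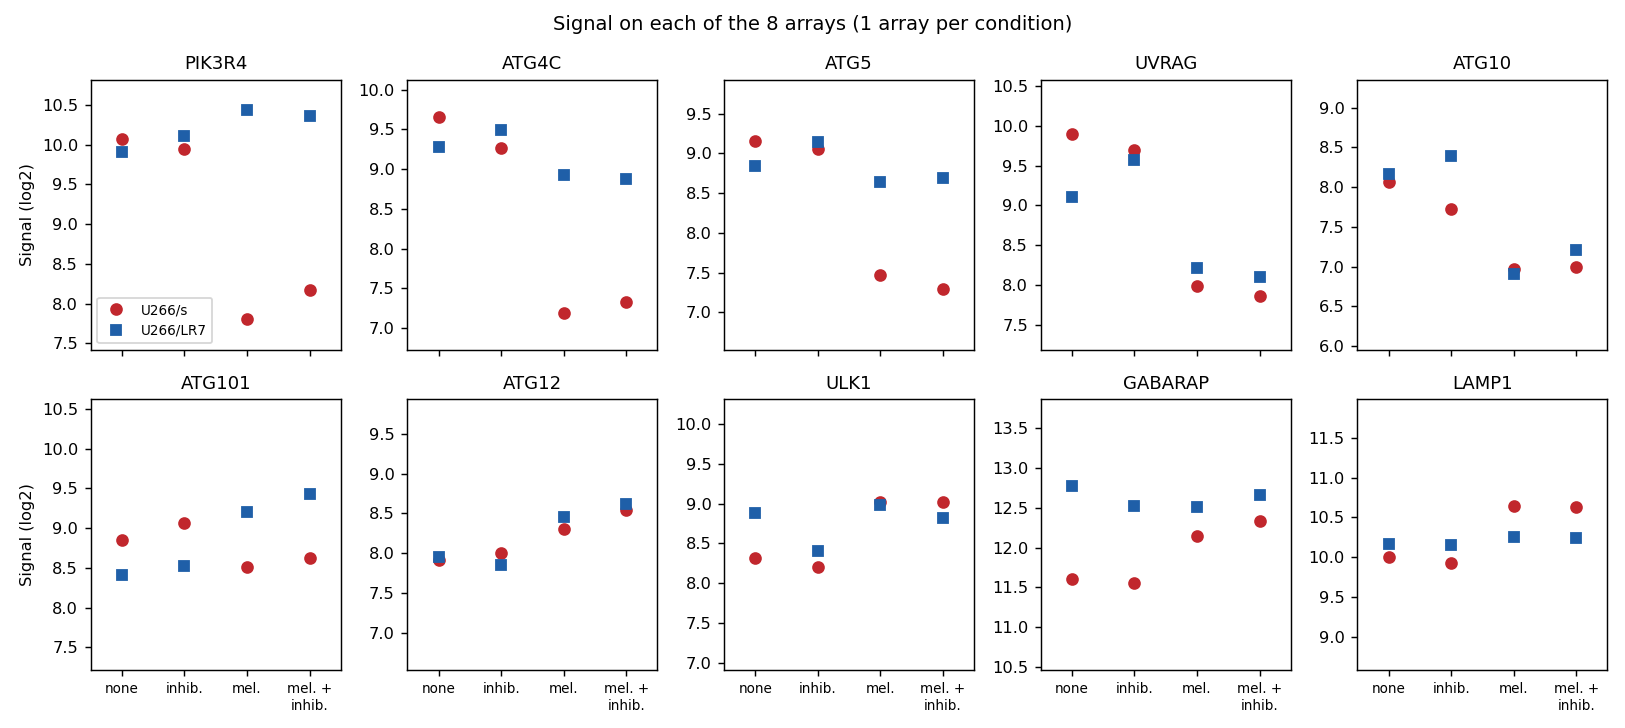
Log2 signal on each of the 8 arrays for 10 genes, in U266/s (red circles) and U266/LR7 (blue squares), by condition (none, inhibitors, melphalan, both); every point is 1 array and all panels span the same height. PIK3R4, ATG4C and ATG5 drop with melphalan in U266/s far more than in U266/LR7, UVRAG and ATG10 drop in both, and ATG101 moves in opposite directions.

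None of the ATG8-family messages was called lower in either line. In U266/s 1 of 5 was called, and all 5 differences were above 0 (0.02 to 0.68), as were 56.2% of all genes. GABARAPL1 (-0.10 and 0.37) and GABARAPL2 (-0.10 and 0.13) were above 0 in 1 of 2 array pairs each. All 5 differences were above 0 under the 3 other scalings too, where 2 to 4 were called. GABARAP read 11.60 and 11.55 in U266/s without melphalan and 12.15 and 12.34 with it. In U266/LR7 it read 12.78 and 12.53 against 12.51 and 12.66. The U266/LR7 arrays lay above those of U266/s in each condition. GABARAP rose by 0.68 ± 0.12 in U266/s (adjusted p = 0.000912), against -0.07 in U266/LR7 (adjusted p = 0.828), and the lines differed by -0.75 ± 0.17 (adjusted p = 0.00809). MAP1LC3B, whose lipid-bound protein is the usual marker of autophagosomes, read 7.54 and 7.41 against 7.68 and 7.98 in U266/s (0.35, adjusted p = 0.0958) and 7.79 and 8.14 against 8.02 and 8.36 in U266/LR7 (0.23, adjusted p = 0.506). MAP1LC3A (0.40 and 0.31), GABARAPL1 (0.13 and 0.51) and GABARAPL2 (0.02 and 0.05) were not called in U266/s or U266/LR7.

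Cargo receptors hold ubiquitinated proteins or organelles to the growing membrane. SQSTM1, encoding p62, was among the brightest genes on the arrays. It read 12.27 and 12.18 against 12.32 and 12.64 in U266/s (0.26, adjusted p = 0.149) and 12.11 and 12.69 against 12.69 and 12.89 in U266/LR7 (0.39, adjusted p = 0.123). NBR1, a related receptor, read 10.24 and 10 against 9.63 and 9.58 in U266/s and 10.70 and 10.88 against 11.19 and 11.02 in U266/LR7. It fell by 0.52 ± 0.14 in U266/s (adjusted p = 0.0118), against 0.31 in U266/LR7 (adjusted p = 0.246), and the lines differed by 0.83 ± 0.20 (adjusted p = 0.0108). That difference was not called after quantile normalization (0.52) or cyclic loess (0.47). The NBR1 fall was lost without the U266/s control (-0.40), melphalan (-0.50) or double-treated array (-0.53) and after quantile normalization or cyclic loess (-0.22 each). OPTN and CALCOCO2 (NDP52) were not called in either line.

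TFEB, a transcription factor that switches on lysosomal and autophagy genes, and the lysosomal membrane proteins LAMP1 and LAMP2 did not move together. TFEB read 7.93 and 8.03 against 7.70 and 7.87 in U266/s (-0.19, adjusted p = 0.285) and 6.99 and 6.88 against 7.13 and 7.06 in U266/LR7 (0.16, adjusted p = 0.636). LAMP1 read 10 and 9.93 in U266/s without melphalan and 10.64 and 10.63 with it, a rise by 0.67 ± 0.13 (adjusted p = 0.0013) under every alternative. In U266/LR7 it read 10.17 and 10.15 against 10.26 and 10.24 (0.10, adjusted p = 0.762). LAMP2, which also serves in fusion of autophagosomes with lysosomes, fell by 0.47 ± 0.14 in U266/s (adjusted p = 0.0155), a call lost without the U266/s control (-0.32) or melphalan array (-0.42) and after quantile normalization (-0.21) or cyclic loess (-0.18) and with transfection in 3 levels.

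TFEB and related factors bind an E-box, CACGTG, within the CLEAR element of lysosomal promoters. RefSeq promoter sequences (GRCh38.p14, from 250 bases before to 50 after the gene's start) were found for 33 of the 38 genes, and both strands were searched. CACGTG was present in 3 of the 33, LAMP1 with 6 copies, ATG3 with 2 and ATG14 with 1, against 7.43% of 27305 promoters and 8.95% of 13770 promoters of coding genes tested here. The longer palindrome TCACGTGA, which contains CACGTG, was present in ATG3 and LAMP1, against 1.04% and 1.51% in the same sets. These 3 promoters are shown because they are the ones that hold the motif, and each is printed along its gene's own strand with CACGTG in capitals. The windows lie at chr13:113296989-113297288 (plus strand) for LAMP1, chr3:112561913-112562212 (minus strand) for ATG3 and chr14:55411781-55412080 (minus strand) for ATG14.
LAMP1: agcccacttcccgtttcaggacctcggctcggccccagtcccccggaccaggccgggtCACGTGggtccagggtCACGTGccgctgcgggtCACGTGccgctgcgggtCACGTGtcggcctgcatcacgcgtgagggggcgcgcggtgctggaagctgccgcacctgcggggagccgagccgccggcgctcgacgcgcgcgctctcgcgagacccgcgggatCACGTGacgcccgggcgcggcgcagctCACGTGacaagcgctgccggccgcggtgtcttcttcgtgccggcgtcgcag
ATG3: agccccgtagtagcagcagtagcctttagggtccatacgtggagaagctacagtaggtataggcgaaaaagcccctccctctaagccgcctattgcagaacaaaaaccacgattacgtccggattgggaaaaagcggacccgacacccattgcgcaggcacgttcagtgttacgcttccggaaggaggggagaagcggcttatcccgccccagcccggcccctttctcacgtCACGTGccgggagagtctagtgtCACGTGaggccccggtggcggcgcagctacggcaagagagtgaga
ATG14: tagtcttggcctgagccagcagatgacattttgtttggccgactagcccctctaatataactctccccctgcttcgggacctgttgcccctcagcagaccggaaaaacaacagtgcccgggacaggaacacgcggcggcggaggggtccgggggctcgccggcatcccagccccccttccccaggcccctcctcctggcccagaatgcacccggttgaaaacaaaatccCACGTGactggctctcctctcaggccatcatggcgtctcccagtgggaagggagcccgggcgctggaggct
Counted from the gene's start, the copies in LAMP1 begin at positions -192 to -1. With melphalan in U266/s, LAMP1 rose (0.67), ATG3 fell (-0.83) and ATG14 was not called (-0.24), so genes with this motif were found in each direction. A match of letters does not show that a factor binds there.

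In U266/LR7, melphalan moved fewer of the 38. ATG101, ATG14 and ATG12 rose and UVRAG, ATG10 and ATG7 fell, 3 in each direction. These 6 stand beside 6.62% of all genes called there (3.02% higher and 3.61% lower), and the median of the 38 was 0.15 against 0.05 for all genes. UVRAG and ATG10 were at least 2-fold lower (1.16% of all genes), and 0 genes were at least 2-fold higher (0.244% of all genes). With the U266/LR7 melphalan array left out the count was 2, and with the double-treated array left out it was 1, and ATG10 was the gene of the 6 called under all 16 alternatives. With transfection fitted in 3 levels, 3 were called.

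The direct test of unequal response called 13 of 38 genes, against 23.9% of all genes. In 11 the melphalan value was more positive in U266/LR7 (17.9% of all genes) and in 2, GABARAP and LAMP1, it was more positive in U266/s (5.99% of all genes). The median of the 38 was 0.43 against -0.01 for all genes. PIK3R4, ATG4C, ATG5 and ATG101 kept their call under all 16 alternatives, and all 13 kept their direction. The split was 9 to 2 after median centring, 5 to 4 after quantile normalization and 7 to 4 after cyclic loess. Leaving out the U266/LR7 melphalan array left 5 called, the U266/s control 6 and the U266/s melphalan array 8.

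Without melphalan, the resistant line had higher messages of the ATG8 family and lower TFEB. Of 38 genes, 10 were higher in U266/LR7 (16.9% of all genes) and 4 lower (17.8% of all genes), so the total of 14 was close to the 34.7% of all genes called. Of the ATG8 family, 4 of 5 were higher, and 4 or 5 under the other scalings. GABARAPL2 read 12.16 and 12.14 in U266/LR7 (control and inhibitors) and 11.06 and 10.95 in U266/s, higher by 1.14 ± 0.11 (adjusted p = 1.14e-05). GABARAP was higher by 1.08 ± 0.12 (adjusted p = 2.8e-05). For both genes every U266/LR7 array lay above every U266/s array, melphalan arrays included. MAP1LC3A (0.56 ± 0.16, adjusted p = 0.0207) and MAP1LC3B (0.49 ± 0.16, adjusted p = 0.0336) were also called. The MAP1LC3A call was lost without the U266/LR7 control (0.49) or the U266/s control (0.30), and that of MAP1LC3B in 4 of 8 fits without 1 array (0.26 to 0.49). GABARAPL1 lay at 10.10 and 10.15 against 9.98 and 9.41 (0.43, adjusted p = 0.0663).

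**Figure D3:**
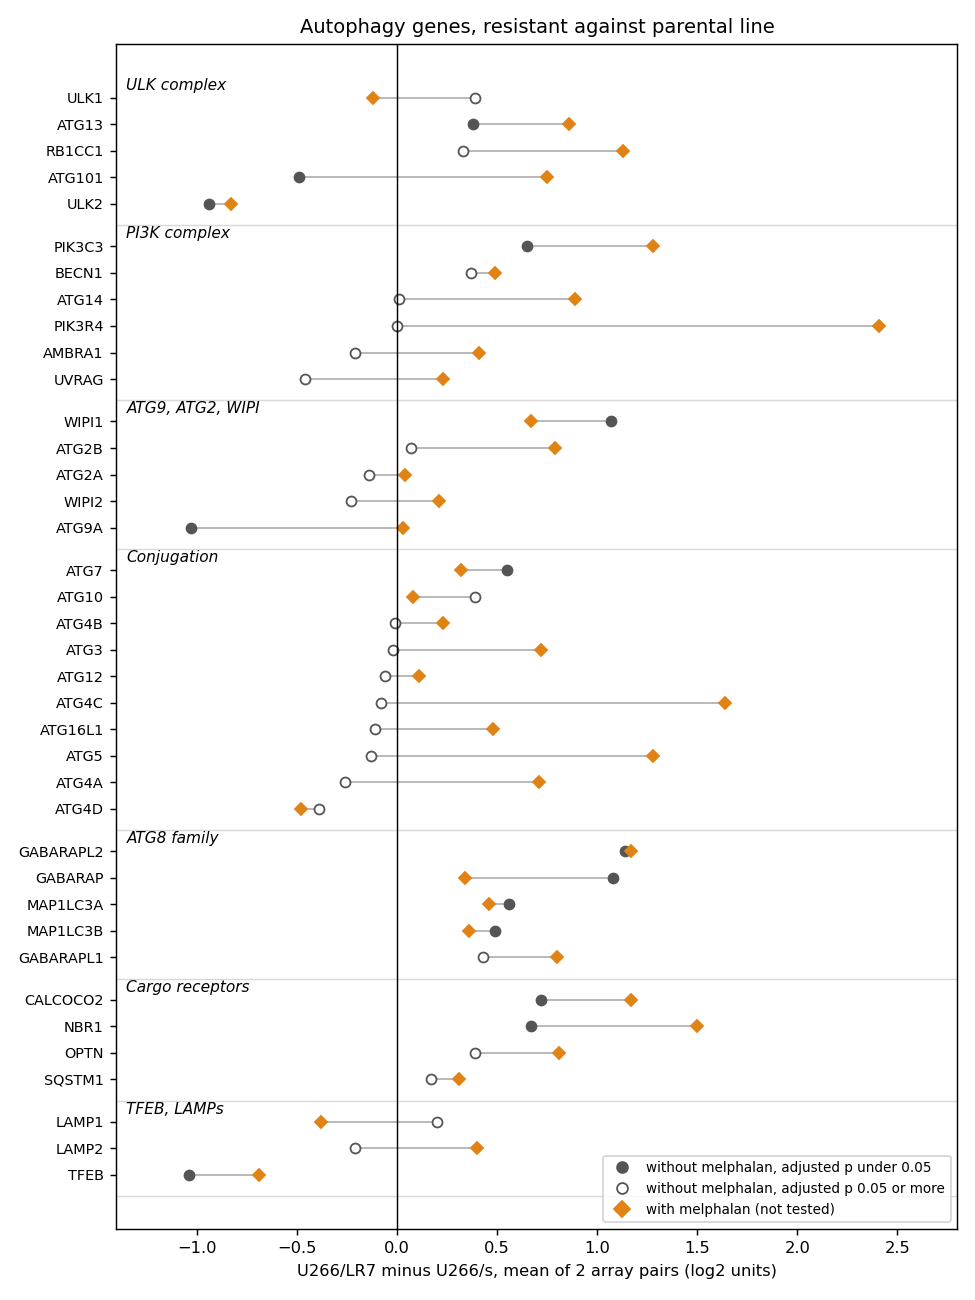
U266/LR7 minus U266/s (log2 units, horizontal axis; mean of 2 array pairs) for the 38 genes by role, without melphalan (grey circles, filled at an adjusted p under 0.05) and with it (orange diamonds, not tested). PIK3R4 goes from 0.00 to 2.41, while GABARAPL2 stays near 1.14 and TFEB and ULK2 stay below 0.

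Other genes higher in U266/LR7 without melphalan were WIPI1 (1.07), CALCOCO2 (0.72), NBR1 (0.67), PIK3C3 (0.65), ATG7 (0.55) and ATG13 (0.38). WIPI1, which binds the phosphatidylinositol 3-phosphate made by the kinase complex, read 11.71 and 11.59 in U266/LR7 and 10.44 and 10.72 in U266/s (adjusted p = 6.6e-05). The lower genes were TFEB (-1.04), ATG9A (-1.03), ULK2 (-0.94) and ATG101 (-0.49). TFEB read 6.99 and 6.88 in U266/LR7 and 7.93 and 8.03 in U266/s (adjusted p = 0.000137), and all 4 arrays of U266/LR7 lay below all 4 of U266/s. ULK2 lay at 5.27 to 5.39 on the U266/LR7 arrays, below each array's lower quartile over the genes tested (5.81 to 6.02), so the size of its difference is limited by the floor. ULK2, WIPI1, GABARAP, GABARAPL2 and TFEB were called under every alternative that tested them. Without the U266/s inhibitor array the count was 7.

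On the melphalan arrays the lines stood further apart. U266/LR7 was higher for 33 of 38 genes, with a median of 0.47, where 43.9% of all genes were higher and the median was -0.08. Without melphalan it was higher for 20 of 38, with a median of 0.04, where 45.5% of all genes were higher. Under melphalan 8 of the 38 were at least 2-fold higher in U266/LR7 (12.2% of all genes) and 0 at least 2-fold lower (4.56%), against 3 (5.93%) and 2 (6.74%) without it. These values share their arrays with the responses within each line and are a description. They used the deposited scaling only, and include the U266/s melphalan arrays, which had the narrowest quartile ranges (3.25 and 3.34 log2 units). In that scaling the median difference between the lines' responses over the 38 was 0.43. It was 0.33 after median centring, 0.10 after quantile normalization and 0.12 after cyclic loess. Over all genes the same median was -0.011, -0.109, -0.064 and 0.002 in that order, so part of these shifts was shared by all genes.

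The study also blocked miR-221 and miR-222, related microRNAs that silence messages by pairing through their seed. Their mature sequences from RefSeq are shown with the seed, bases 2 to 8, in capitals, because both share it and hence a set of possible targets.
hsa-miR-221-3p: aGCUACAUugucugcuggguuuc
hsa-miR-222-3p: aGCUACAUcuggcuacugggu
They lie on the minus strand of GRCh38.p14 at chrX:45746180-45746202 and chrX:45747036-45747056. Over both lines, 4 arrays with inhibitors against 4 without, limma called 0 of the 38, beside 0.0434% of all genes (0.0271% higher and 0.0163% lower). Under the tags that reference is mixed, since the control arrays received the control oligonucleotide and the melphalan-alone arrays no transfection. With transfection in 3 levels 0 were called as well. At an unadjusted p under 0.05 there were 2, SQSTM1 (0.25 ± 0.10, adjusted p = 0.72) and BECN1 (0.24 ± 0.10, adjusted p = 0.75). Some unchanged genes pass such a threshold, and the share of all genes that did is not given here. The count of 2 hence does not show an effect of the inhibitors. SQSTM1 was higher with inhibitors in 3 of 4 array pairs and BECN1 in 4 of 4. The 38 differences ran from -0.18 to 0.25. Within each line taken alone limma called 0 as well.

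The genomic span of a gene, from start to end with introns (GRCh38.p14, RefSeq), went with its melphalan value. Over the 38, Spearman's rho between span and the log2 difference was -0.72 in U266/s and -0.60 in U266/LR7, against -0.41 and -0.34 over 16900 protein-coding genes. These are correlations across genes of the same 8 arrays, which are not independent replicates, and are given as a description. In the longest quartile of coding genes (71.1 to 2470 kb) lay 10 of the 38, of which 9 fell in U266/s with a median of -0.95. Over all genes of that quartile 45.1% fell, with a median of -0.31. All 3 genes that fell in U266/LR7 (UVRAG at 329 kb, ATG7 at 304 kb and ATG10 at 284 kb) belong to it. In U266/LR7 the 10 had a median of -0.36, against -0.11 for all genes of that quartile. Of all genes tested 3.61% fell in U266/LR7, and the share within the quartile was not counted. In the next quartile (27.3 to 71.1 kb) 6 of 16 fell and 1 rose, ULK1, where 36.6% of all genes fell and 11.5% rose. In the quartile from 9.98 to 27.3 kb 2 of 10 fell and 2 rose, close to the 18.3% and 19.8% of all genes there. In the shortest both members, GABARAP (2.44 kb) and ATG4D (9.52 kb), rose, where 30.8% of all genes did. Exceptions were ULK2 (97.1 kb), which was not called, and ATG9A (10.3 kb) and ATG101 (12.2 kb), which fell. The part of gene span in these responses was not tested.

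**Figure D4:**
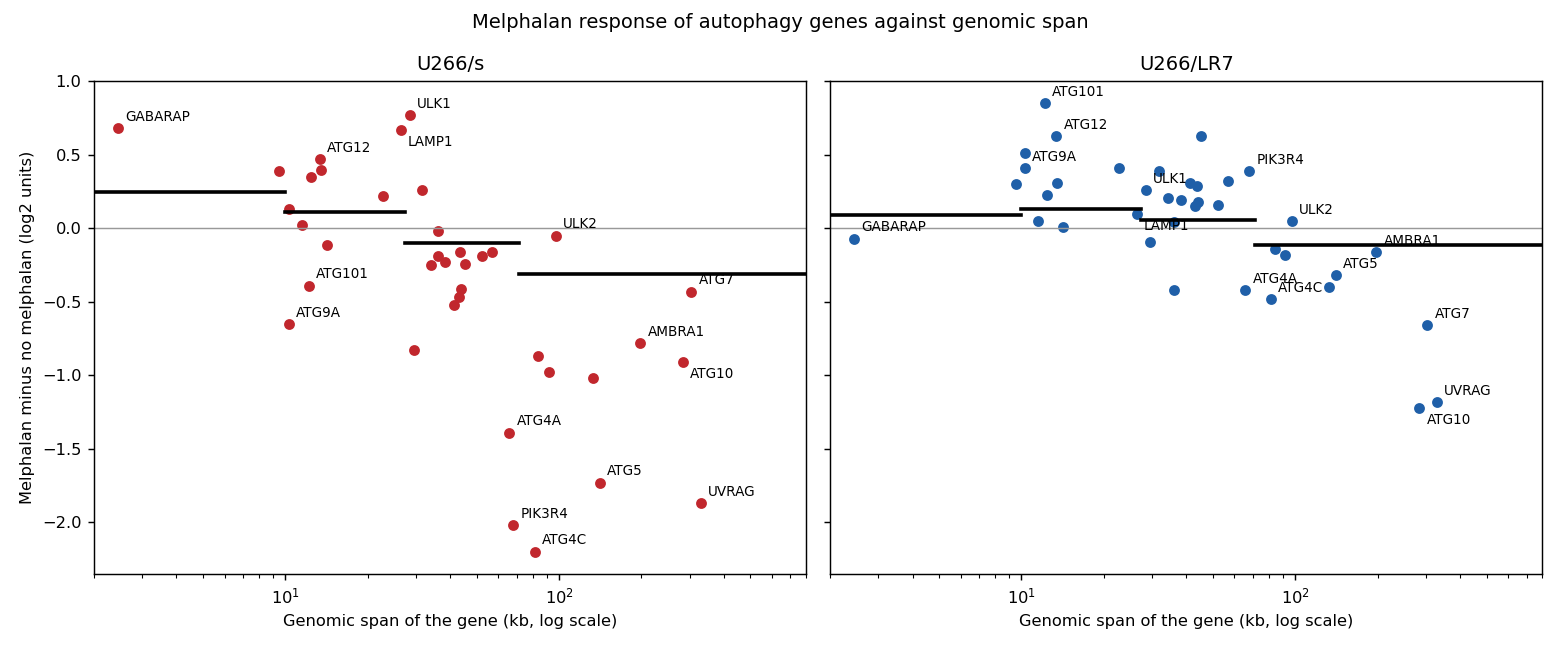
Melphalan minus no melphalan (log2 units) against genomic span (kb, log scale) for the 38 genes in U266/s (left) and U266/LR7 (right). Each point is 1 gene, and black bars are the medians of all protein-coding genes tested in each quartile of span, drawn across that quartile within the axis; in U266/s they step down from 0.25 to -0.31.

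Other genes of the pathway came from lists chosen by function. Of 35 further autophagy genes measured, 5 rose and 11 fell with melphalan in U266/s, near the 18.4% and 24.9% of all genes. YKT6 (0.82) and SNAP29 (0.65), SNARE proteins of autophagosome fusion, and RUBCN (0.74), an inhibitor of the UVRAG complex, rose. TMEM41B (-1.0), a lipid scramblase, and WDFY3 (-0.93) and SEC62 (-0.86), which serve in selective autophagy, had the largest falls. In U266/LR7 VPS18 (0.98) rose and EPG5 (-0.81) and VMP1 (-0.47) fell, beside 3.02% and 3.61% of all genes. Without melphalan 15 of the 35 were higher in U266/LR7 and 2 lower, beside 16.9% and 17.8% of all genes. The fusion SNARE VAMP8 had the largest difference there, at 11.14 and 10.52 in U266/LR7 while U266/s read 8.44 and 8.52 (2.34 ± 0.18, adjusted p = 1.32e-06). The 2 lower genes were WDFY3, at 5.49 and 5.83 against 8.01 and 7.68, and ATG16L2, at 7.69 and 7.57 against 8.05 and 8.01. WDFY3 lay near the arrays' lower quartiles (5.81 to 6.02) in U266/LR7, so the size of its difference is limited by the floor.

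Of 27 lysosomal genes measured, 11 rose and 4 fell in U266/s, beside 18.4% and 24.9% of all genes. CTSZ, the protease cathepsin Z, read 8.90 and 8.74 without melphalan and 10.20 and 10.23 with it (1.40 ± 0.13, adjusted p = 1.26e-05). GAA (1.04) and NEU1 (0.91), which degrade glycogen and sialylated molecules, rose as well, while SCARB2 (-0.74), GLA (-0.53) and LIPA (-0.51) fell. In U266/LR7 MCOLN1 (0.69), NEU1 (0.65) and CTSD (0.39) rose and 0 fell (3.02% and 3.61% of all genes). Without melphalan 16 of the 27 were higher in U266/LR7 and 2 lower, beside 16.9% and 17.8% of all genes. The higher were led by CTSZ (2.18), GLB1 (1.49) and ATP6V0D1 (1.37), while TFEB itself was lower. The 2 lower lysosomal genes were CTSF, at 6.05 and 6.05 against 6.84 and 6.85, and SCARB2, at 10.11 and 10.16 against 10.73 and 10.52.

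Of 34 genes of nutrient sensing by mTORC1 and AMPK and of related transcription factors, 7 rose and 10 fell in U266/s, near the 18.4% and 24.9% of all genes. STK11 (1.01), the kinase LKB1 that activates AMPK, LAMTOR4 (0.93) and PRKAB1 (0.75) had the largest rises. PRKAA2 (-2.12), a catalytic AMPK subunit, DEPTOR (-1.85), an inhibitor of mTOR known for high levels in myeloma, and FNIP1 (-1.61) had the largest falls. PRKAA2 lay at 5.18 and 5.28 on the U266/s melphalan arrays, under their lower quartiles, so the size and rank of its fall are limited by the floor. DEPTOR read 10.83 and 10.64 in U266/s without melphalan and 8.72 and 9.05 with it. In U266/LR7 it read 9.05 and 8.92 against 7.99 and 7.72, and fell by 1.13 ± 0.17 (adjusted p = 0.00294). Each line's melphalan arrays lay below its others, and the resistant line started lower (-1.75). MITF (-1.47) and RPTOR (-0.76) also fell in U266/LR7, and PRKAB1 (0.82) and TFE3 (0.58) rose. Together 3 of the 34 fell there and 2 rose, beside 3.61% and 3.02% of all genes. Between the lines without melphalan, 10 of the 34 were higher in U266/LR7 and 6 lower, beside 16.9% and 17.8% of all genes. Of the 3 lists limma called 0 genes for the inhibitors, with 1, 0 and 5 at an unadjusted p under 0.05. Here too the share of all genes at that threshold is not given.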

How the data were processed

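Total RNA of 8 samples of 2 cell lines was hybridised to one-colour Affymetrix arrays. The authors' deposited values are log2 signals made with RMA in Affymetrix Expression Console, per the submitters' processing notes. For their versions, nothing is given in the sources used here. There were 33297 transcript clusters. In the platform annotation 19460 have 1 gene symbol, 1754 several and 12083 none, and 19429 of those with 1 symbol matched the reference by gene ID. Clusters with several symbols or none were not used. For 769 genes with more than 1 cluster the brightest was kept, which left 18417 genes. The number of arrays limits the precision.

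limma 3.58.1 (R 4.3.3) was fitted to the log2 values of all 8 arrays with terms for line, melphalan, inhibitors and melphalan by line (3 residual degrees of freedom), with intensity-trended empirical Bayes variances and Benjamini-Hochberg adjustment over all genes at 0.05. The members and gene lists were chosen with earlier results of these data known. Every member could be named. Values in full were given to called members and to a fixed set (ULK1, BECN1, ATG5, ATG7, MAP1LC3B, GABARAPL1, SQSTM1, TFEB and LAMP1). For the melphalan responses within each line, the 3 largest called changes each way of each further list were also given. For the line difference only some of these were given, and for the melphalan by line term none. The other scalings were median centring, quantile normalization and cyclic loess of the genes tested. The 16 alternatives of the melphalan results were these, a signal filter, no intensity trend, the mean of all clusters, all two-way terms, transfection in 3 levels and the 8 fits without 1 array. The fits were tested on simulated data with 18417 genes and 200 changed by 1 log2 unit. Of these 99% were recovered for melphalan in U266/s, 97.5% for the line difference and 75.5% for the melphalan by line term. Of the unchanged genes 16, 10 and 9 were called. The simulated noise was independent with the fit's own variances, and far fewer genes were changed than were called in the data. Recovery in the data can hence differ, and melphalan in U266/LR7 was not simulated.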

Additional observations from a re-analysis of the deposited data

Results flagged for a closer look

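The melphalan response differed between U266/s and U266/LR7, by the limma test of the melphalan by line term, for 13 of the 38 genes. The difference (U266/LR7 minus U266/s, log2 units) was 2.41 for PIK3R4, 1.72 for ATG4C, 1.41 for ATG5, 1.24 for ATG101, 1.06 for ATG9A, 0.97 for ATG4A, 0.88 for ATG14, 0.83 for NBR1, 0.74 for ATG3, 0.62 for AMBRA1 and 0.62 for LAMP2. It was -0.75 for GABARAP and -0.57 for LAMP1. Adjusted p ran from 1e-04 (PIK3R4) to 0.0384 (AMBRA1). Calls that rested on single arrays were ATG3 without the U266/LR7 melphalan array (0.70) or the U266/s control (0.71), ATG4A without the U266/LR7 melphalan array (0.78), the U266/s control (0.96) or the U266/s melphalan array (0.76), GABARAP without the U266/LR7 melphalan array (-0.66), and NBR1 without the U266/LR7 melphalan array (0.76) or the U266/s control (0.71). ATG14, LAMP1 and LAMP2 lost their call in 6 of 8 such fits and AMBRA1 in 7. Other scalings ended the call for ATG9A (0.70) and ATG14 (0.70) after quantile normalization, for ATG3 (0.44 and 0.41) and NBR1 (0.52 and 0.47) after quantile normalization and cyclic loess, and for AMBRA1 (0.41 to 0.52) and LAMP2 (0.27 to 0.52) under all 3. With all two-way terms the calls of AMBRA1, LAMP1 and LAMP2 were lost, and with transfection in 3 levels those of AMBRA1 and LAMP1.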

How the results depend on the processing

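The labels give no replicate numbers, so no replicate number was fitted as a block. Across the other settings that kept all arrays, the number of the 38 genes called was 17 to 22 for melphalan in U266/s, 3 to 6 in U266/LR7, 9 to 17 for the difference between the lines' responses, 13 to 17 for U266/LR7 against U266/s without melphalan and 0 for the inhibitors. The value of 3 came with transfection fitted in 3 levels, and its cause was not tested. Leaving out 1 array gave 15 to 22, 1 to 6, 5 to 18, 7 to 16 and 0 to 0 genes. Calls kept in every alternative numbered 13 of 22, 1 of 6, 4 of 13 and 5 of 14, and the direction was kept for 22, 6, 13 and 13. The exception was ATG101, whose line difference was 0.13 in the additive fit, which averages over arrays with and without melphalan, against -0.49 without melphalan. Scaling moved the median of all genes for melphalan in U266/s from 0.075 to between -0.002 (cyclic loess) and 0.137 (median centring). For single genes named, settings that kept all arrays left 1143 values on the same side of the threshold, 80 weaker, 11 newly past it and 1 reversed, and fits without 1 array 989, 201, 10 and none reversed. Calls for the line difference were lost without 1 array for ATG13 (5 of 8 fits), ATG101 without the U266/s control (-0.52) or inhibitor array (-0.46), PIK3C3 without either inhibitor array (0.42 for that of U266/LR7, 0.55 for that of U266/s), and ATG7 (0.48), NBR1 (0.56) and CALCOCO2 (0.55) without the U266/s inhibitor array.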
